A study of Mus musculus with 8 samples.

Results

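The genes described here are 9 that act in blood clotting and in the breakdown of clots: F3, F7, F10, F5, F13a1, Plat, Plau, Plaur and Serpinb2. They are the rows of the deposited count table that carry these symbols, 9 of 54532 gene rows, and each symbol matched 1 row. They were chosen by their roles and by their read counts in M_KO against M_WT macrophages, where F3 and Plat had lower values in M_KO. Their values in that comparison are therefore given as a description, and the calls counted in it are no support for any single gene. The macrophages came from the peritoneal cavity of mice given thioglycollate broth, which irritates the cavity and brings in leukocytes, and all groups shared that treatment. The KO cells were knocked out for Men1, the gene of menin, which holds histone methyltransferase complexes together, and the WT cells were wild type. The groups were M_KO (M_KO_5944, M_KO_5645 and M_KO_5642), M_WT (M_WT_5643, M_WT_6258 and M_WT_6255), F_KO (F_KO_5639) and F_WT (F_WT_5638), with the number from each library's title. The labels do not say what these numbers or the letters M and F mean. The sources used here do not state how or in which cells Men1 was deleted, or the strain and age of the animals. Values of the M libraries are listed below in the order given here.

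Clotting after injury starts when tissue factor, the membrane protein encoded by F3, binds factor VII, a protease encoded by F7. The complex activates factor X (F10), which with its cofactor factor V (F5) turns prothrombin into thrombin, and thrombin cleaves fibrinogen into fibrin. Factor XIII, whose catalytic A subunit is encoded by F13a1, crosslinks the fibrin. Clots are dissolved by plasmin, which is made from plasminogen by tissue plasminogen activator (Plat) or urokinase (Plau). Urokinase acts at the cell surface on its receptor, encoded by Plaur. Plasminogen activator inhibitor 2, encoded by Serpinb2, blocks both activators. Liver cells make most circulating clotting factors, whereas macrophages are a known source of factor XIII A, urokinase, inhibitor 2 and, on activation, tissue factor.

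Promoter windows from RefSeq were found for 7 of the 9 genes (F3, F7, F10, F5, F13a1, Plaur and Serpinb2). The 3 genes whose windows held an AP-1 motif are printed here: F3, which starts clotting, Serpinb2, the member with the highest level, and Plaur, the member that varied least. Each line holds the 250 bases before the start site on the plus strand, 5′ to 3′, in the build GRCm38.p6, and capitals mark matches to the motifs searched on either strand.
F3, chr3:121723287-121723536: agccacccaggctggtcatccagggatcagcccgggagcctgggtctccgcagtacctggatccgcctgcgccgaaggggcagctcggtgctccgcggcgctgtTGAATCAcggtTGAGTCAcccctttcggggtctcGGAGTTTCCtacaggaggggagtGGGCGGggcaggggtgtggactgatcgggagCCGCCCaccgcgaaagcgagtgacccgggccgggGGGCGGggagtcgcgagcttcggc
Serpinb2, chr1:107511173-107511422: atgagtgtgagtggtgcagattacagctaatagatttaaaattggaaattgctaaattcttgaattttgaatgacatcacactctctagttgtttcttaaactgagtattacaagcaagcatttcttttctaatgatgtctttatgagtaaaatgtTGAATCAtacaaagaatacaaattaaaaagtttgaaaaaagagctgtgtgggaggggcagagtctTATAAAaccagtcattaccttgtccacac
Plaur, chr7:24462233-24462482: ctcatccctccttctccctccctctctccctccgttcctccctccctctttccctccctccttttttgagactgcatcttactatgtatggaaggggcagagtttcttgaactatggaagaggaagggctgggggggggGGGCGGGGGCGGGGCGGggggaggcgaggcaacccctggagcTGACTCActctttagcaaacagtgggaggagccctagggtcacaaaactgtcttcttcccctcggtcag
The motifs were TGANTCA for AP-1, GGANTTTCC for NF-kB, TGACGTCA for CREB, GGGCGG for SP1, GCGNGGGCG for EGR1, TATAAA for the basal machinery and GAGGAAGT for PU.1. They were searched in windows of 300 bases that also take in the first 50 bases from the start. The F3 window held AP-1 motifs at -146 and -135, an NF-kB motif at -112, SP1 motifs at -89, -58 and -24 from the start site and, past the printed bases, a TATAAA motif on the reverse strand at 44. The Serpinb2 window held an AP-1 motif at -94 and a TATAAA motif at -29. The Plaur window held an AP-1 motif at -69 and SP1 motifs at -111, -105 and -100, of which the first and the second overlap the EGR1 match at -109. Of 32851 promoter windows of that length, 7.81% held the AP-1 motif, 1.25% the NF-kB motif, 35.7% the SP1 motif, 13.6% the TATAAA motif and 5.55% the EGR1 motif. The CREB motif was in 1.79% of windows and the PU.1 motif in 3.20%. None of these letters was found in the windows of F7 and F10, F5 held an SP1 motif, and 1 window of F13a1 held NF-kB and PU.1 matches. A match is a description of letters and not a site shown to be bound.

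The targeted gene was checked first. Men1 was at 8.18, 6.52 and 8.34 CPM (counts scaled to library size by TMM) in M_KO, at 25.9, 17.2 and 21.5 CPM in M_WT, at 11.8 CPM in F_KO and at 18.0 CPM in F_WT. Men1 was thus lower in each KO library than in each WT library, and transcript was counted in all 8. Total counts ran from 18206427 to 22853583 per library, so that the 3 counts that a count of 0 allows equal 0.119 to 0.170 CPM. The 8 macrophage markers were all counted, with summed levels of 17973 to 20756 CPM in M_KO and 20845 to 32263 CPM in M_WT. Hepatocyte markers summed to at most 0.213 CPM and mesothelial markers to at most 3.30 CPM in any library. By Spearman correlation the least alike M libraries were M_KO_5645 and M_WT_6258 (0.949). M_KO_5944 was nearer to M_WT_5643 (0.984) than to M_KO_5645 (0.971) or M_KO_5642 (0.966). In genes of resident macrophages M_KO_5642 stood apart from the other M libraries. It held 60.3 CPM of Timd4, a receptor of large resident peritoneal macrophages, against 372 to 588 CPM in the other 5 M libraries. F_KO held 377 CPM and F_WT 193 CPM. The mean of all 9 genes of the resident macrophage list was -1.38 log2 units in M_KO_5642, relative to each gene's mean over 8 libraries. It was 0.10 to 0.50 in the other M libraries, 0.20 in F_KO and -0.21 in F_WT. Results that rest on M_KO_5642 are given with and without it. The labels do not say whether the libraries of a group came from separate animals, so the p-values below measure the spread between these libraries, which may be technical. In bulk RNA fewer cells of a type and less RNA per cell cannot be told apart.

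The genes spanned more than 3 orders of magnitude in length-scaled level. Serpinb2 stood highest, with 568 to 2741 FPKM (fragments scaled to gene length and library size) over the 8 libraries and a median of 1469 FPKM. It ranked 16, 25 and 57 among all genes by FPKM in M_KO and 10, 12 and 10 in M_WT. F10 followed with a median of 419 FPKM (lowest 290.04, highest 745 FPKM) and F5 with a median of 294 FPKM (lowest 138, highest 546 FPKM). Both encode proteins best known from plasma, and their medians stood above those of all other members but Serpinb2. Plaur had a median of 51.1 FPKM, F13a1 of 50.2 FPKM and F7 of 30.4 FPKM. Plau (7.93 FPKM), F3 (6.14 FPKM) and Plat (0.28 FPKM) had the lowest medians.

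Neighbours in the order of mean log2 FPKM were compared within libraries by an exact two-sided sign-flip permutation test, adjusted by the Benjamini-Hochberg method over the 8 pairs. This comparison between genes was not used in choosing them, though the order itself was set on the same levels. Serpinb2 over F10, F5 over Plaur, F7 over Plau and F3 over Plat each held in 8 of 8 libraries (exact p = 0.0078, the smallest that 8 libraries can give, adjusted p = 0.016). Their mean differences in log2 FPKM were 1.76 ± 0.38, 2.52 ± 0.75, 2.13 ± 0.89 and 3.61 ± 0.92 (SD, n = 8). F10 and F5 did not differ beyond their spread (F10 higher in 6 of 8 libraries, exact permutation test, adjusted p = 0.115), nor did Plau and F3 (Plau higher in 6 of 8, adjusted p = 0.115). Plaur, F13a1 and F7 could not be ordered either (adjusted p = 0.930 for Plaur over F13a1 and 0.518 for F13a1 over F7, each higher in 5 of 8 libraries). With the 6 M libraries alone, the smallest possible exact p is 0.031, and 0 of 8 pairs passed after adjustment.

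**Figure D1:**
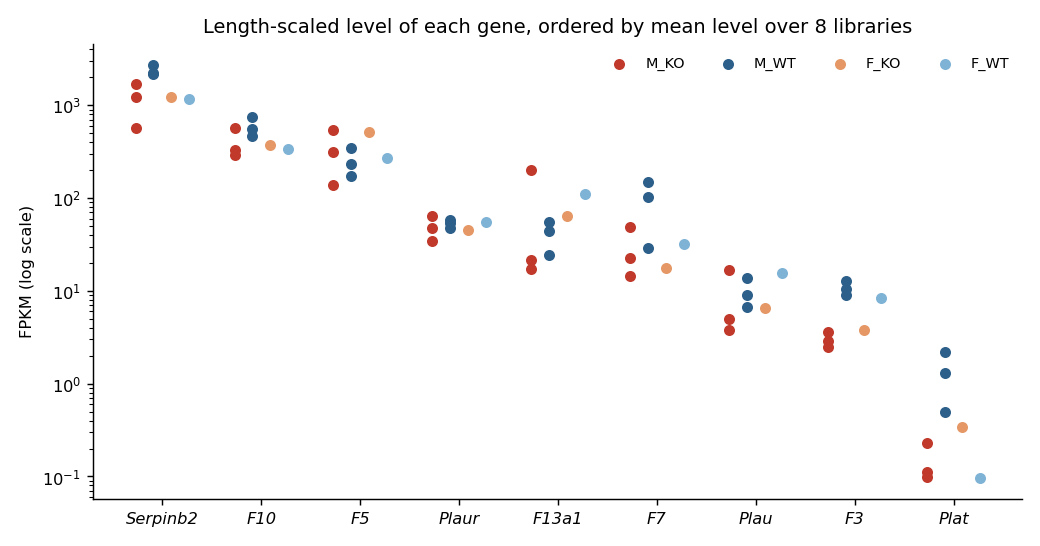
Level of each gene in FPKM (vertical, log scale) in the 8 libraries, with the genes ordered along the horizontal axis by mean log2 level and each dot 1 library, coloured by M_KO, M_WT, F_KO and F_WT. Serpinb2 lies at 568 to 2741 FPKM and Plat at 0.10 to 2.18 FPKM, and the dots of Plaur, F13a1 and F7 overlap one another.

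Tissue factor transcript was lower in all 4 KO libraries than in all 4 WT libraries. F3 (ENSMUSG00000028128, GRCm38 chr3:121723537-121735048, plus strand) was at 6.25, 7.50 and 9.13 CPM in M_KO and at 23.0, 31.9 and 26.6 CPM in M_WT, with 9.73 CPM in F_KO and 21.7 CPM in F_WT. The highest KO level, in F_KO, stood below the lowest WT level, in F_WT, a separation shown by 2.35% of all tested genes. The means were 7.62 ± 1.44 CPM in M_KO and 27.2 ± 4.49 CPM in M_WT (SD, n = 3 each), a ratio of 0.28 and a log2 fold change of -1.83 (SE 0.21). These levels rest on 110 to 231 reads in M_KO and 465 to 599 reads in M_WT. The F_KO to F_WT ratio was 0.449 (95% exact Clopper-Pearson interval for counting error 0.380 to 0.530). Without any 1 M library the fitted value stayed between -1.99 and -1.71.

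F7 (ENSMUSG00000031443, chr8:13026034-13035809), the protease partner of tissue factor, had lower values in most KO libraries, with overlap. It was at 42.2, 27.5 and 92.4 CPM in M_KO and at 53.9, 279 and 192 CPM in M_WT, so that M_WT_5643 lay below M_KO_5642. The means were 54.1 ± 34.1 CPM in M_KO and 175.03 ± 114 CPM in M_WT (SD, n = 3 each), a log2 fold change of -1.70 (SE 0.67). It was -2.34 without M_KO_5642 and -1.18 without M_WT_6258, the library with the highest F7 level. F_KO held 33.6 CPM and F_WT 59.8 CPM, a ratio of 0.562 (interval 0.512 to 0.616), so that F_WT was close to M_WT_5643 and far below the other WT libraries.

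F10 (ENSMUSG00000031444, chr8:13037308-13056676) encodes factor X, the protease on which the routes of clotting converge. It was at 1566, 914 and 803 CPM in M_KO and at 2037, 1275 and 1518 CPM in M_WT, and the groups overlapped through M_KO_5944. The fitted log2 fold change of -0.56 (SE 0.31) was -0.91 without M_KO_5944 and -0.35 without M_WT_5643. In the F pair F10 was at 1025 CPM in F_KO and 939 CPM in F_WT, a ratio of 1.09 (interval 1.07 to 1.11) that was 0.997 when scaled by total counts.

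F5 (ENSMUSG00000026579, chr1:164151838-164220277), the cofactor of factor X, had no common direction in the M libraries. It was at 2361, 4144 and 1042 CPM in M_KO and at 2596, 1295 and 1763 CPM in M_WT. M_KO_5645 held the highest and M_KO_5642 the lowest F5 level of the 8 libraries, so that the WT values lay inside the range of the KO values. The fitted log2 fold change of 0.41 (SE 0.50) was -0.15 without M_KO_5645 and 0.78 without M_KO_5642. F_KO held 3919 CPM and F_WT 2037 CPM, a ratio of 1.92 (interval 1.90 to 1.95). Of the 4 clotting genes it alone had a higher mean in M_KO.

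F13a1 (ENSMUSG00000039109, chr13:36867178-37050244, minus strand), which encodes the subunit that crosslinks fibrin, varied 11.4-fold between libraries. It was at 148, 119 and 1357 CPM in M_KO and at 300.3, 376 and 168 CPM in M_WT. M_KO_5642 stood far above every other M library, and the remaining M_KO libraries lay below all M_WT libraries. The fitted log2 fold change was 0.94 (SE 0.93) with M_KO_5642 and -1.09 without it. F_KO held 437 CPM and F_WT 749.9 CPM, a ratio of 0.583 (interval 0.568 to 0.598).

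**Figure D2:**
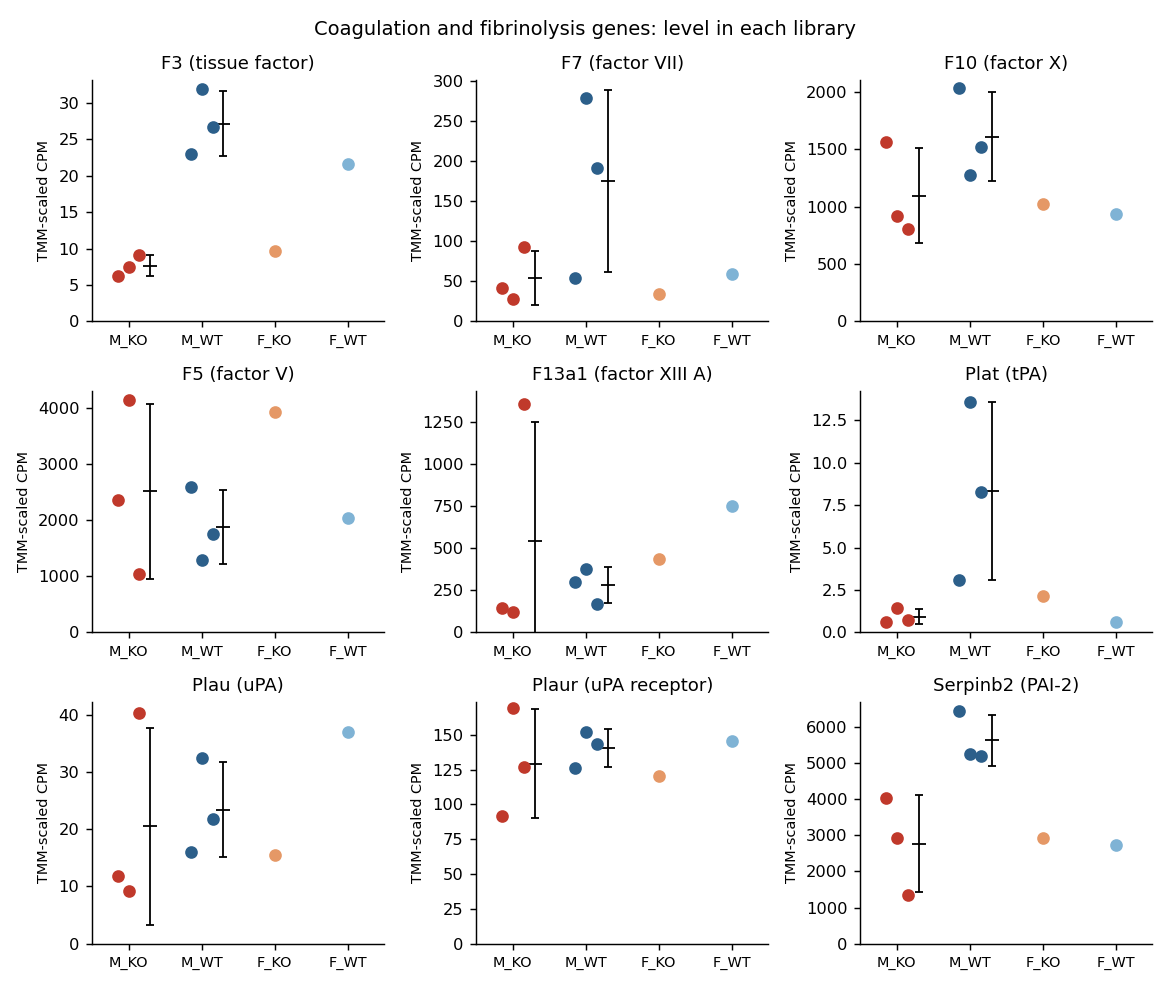
TMM-scaled CPM (vertical, from 0) of each of the 9 genes in each library (dots) of M_KO, M_WT, F_KO and F_WT; the bar beside each M group is its mean with 1 SD (n = 3), cut at 0 for F13a1, and the F groups have 1 library each. F3 is at 6.25 to 9.73 CPM in the KO libraries and 21.7 to 31.9 CPM in the WT libraries, while F13a1 and Plau are highest in M_KO_5642.

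Of the plasminogen activators, Plat had the largest fitted difference between M_KO and M_WT among the 9 genes, on few reads. Plat (ENSMUSG00000031538, chr8:22757727-22782844) was at 0.62, 1.45 and 0.71 CPM in M_KO and at 3.11, 13.6 and 8.27 CPM in M_WT, from 11 to 28 reads in M_KO and 63 to 255 reads in M_WT. Each M_KO library lay below each M_WT library, and M_WT_5643 was again the lowest of the M_WT libraries, as for F7. The means were 0.93 ± 0.45 CPM in M_KO and 8.32 ± 5.24 CPM in M_WT (SD, n = 3 each), with a log2 fold change of -3.17 (SE 0.62), which lay between -3.62 and -2.62 without any 1 M library. The F pair had the opposite order, with 2.17 CPM (45 reads) in F_KO and 0.60 CPM (14 reads) in F_WT, a ratio of 3.59 (interval 1.93 to 7.08). The lowest level of the 8 libraries was thus in a WT library.

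Plau (ENSMUSG00000021822, chr14:20836660-20843385), which encodes urokinase, did not separate the M groups. It was at 11.8, 9.26 and 40.4 CPM in M_KO and at 16.0, 32.5 and 21.8 CPM in M_WT. As for F13a1, M_KO_5642 was the highest library and the other M_KO libraries lay below all M_WT libraries. The fitted log2 fold change was -0.19 (SE 0.58) with M_KO_5642 and -1.16 without it. F_KO held 15.5 CPM and F_WT 37.1 CPM, a ratio of 0.418 (interval 0.367 to 0.476).

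Plaur (ENSMUSG00000046223, chr7:24462484-24475968), the urokinase receptor gene, varied least, 1.85-fold over the 8 libraries. It was at 91.6, 169.6 and 127 CPM in M_KO and at 126, 152 and 144 CPM in M_WT, so that the WT values lay inside the KO range. The fitted log2 fold change was -0.12 (SE 0.23) and 0.08 without M_KO_5944. F_KO held 121 CPM and F_WT 145 CPM, a ratio of 0.830 (interval 0.788 to 0.874).

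Serpinb2 (ENSMUSG00000062345, chr1:107511423-107535478) encodes the inhibitor of both activators and took 0.150 to 0.390% of all counts in M_KO and 0.514 to 0.596% in M_WT. It was at 4034, 2921 and 1353 CPM in M_KO and at 6444, 5252 and 5200.4 CPM in M_WT. Each M_KO library lay below each M_WT library, and M_KO_5642 was the lowest of the 8. The means were 2769 ± 1347 CPM in M_KO and 5632 ± 704 CPM in M_WT (SD, n = 3 each), a log2 fold change of -1.03 (SE 0.39), which was -0.70 without M_KO_5642. The F pair differed little, with 2930.4 CPM in F_KO and 2747 CPM in F_WT, both at the level of M_KO. That ratio of 1.07 (interval 1.06 to 1.08) was 0.974 when scaled by total counts.

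Over the M libraries, 3 of the 9 genes (F3, Plat and Serpinb2) were lower in every M_KO than in every M_WT library, a pattern shown by 7.14% of all tested genes. No member was higher in every M_KO library, where 8.99% of all tested genes were, and 6 overlapped. Without M_KO_5642 the members below all M_WT libraries were 6 (F3, F7, F13a1, Plat, Plau and Serpinb2), against 13.2% of all tested genes. The fitted value was lower in M_KO for 7 members and higher for F5 and F13a1, with a median log2 fold change of -0.56 beside 0.01 over all 13646 tested genes. All 9 passed the expression filter. EdgeR called 0 of the 9 at an adjusted p under 0.05, where 0.022% of all genes were called, with 4 at an unadjusted p under 0.05 (F3, F7, Plat and Serpinb2) beside 9.56% of all genes. Without the expression filter edgeR called 1, F3, with 0.0629% of all genes called. DESeq2 called F3 and Plat, with 1.21% of all genes called, and limma called 0 members on voom values (0.022% of all genes called), on log2(FPKM + 0.1) (0.022%) or on log2(FPKM + 1) (0.0147%). The authors' deposited table also calls F3 (log2 fold change -1.83) and Plat (-3.16), with 0.553% of its genes called. The targeted gene Men1 (log2 fold change -1.49) was not called by edgeR with the filter (adjusted p = 0.284) and was called by DESeq2 (adjusted p = 4.45e-06). Since this comparison was known when the genes were chosen, nothing is read from the counts of members.

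Clotting genes and plasminogen activation genes were set side by side as the mean log2 level of a group of genes in each library, relative to each gene's mean over 8 libraries. The mean of F3, F7, F10 and F5 was -0.36, -0.44 and -0.47 in M_KO, 0.33, 0.62 and 0.59 in M_WT, -0.25 in F_KO and -0.02 in F_WT. The mean of the activators Plat and Plau was -1.19, -0.81 and -0.22 in M_KO, 0.11, 1.66 and 1.02 in M_WT, -0.17 in F_KO and -0.39 in F_WT. The inhibitor Serpinb2 was at 0.20, -0.26 and -1.37 in M_KO, 0.88, 0.58 and 0.57 in M_WT, -0.26 in F_KO and -0.35 in F_WT. In the M libraries, from which the genes were chosen, all 3 were lower in each M_KO than in each M_WT library. Within the sets F7, F10, F5 and Plau overlapped between M_KO and M_WT, and F5 had a higher mean in M_KO. In the F pair the clotting mean was lower in F_KO and the other 2 were not, but members of a set differed. Of the activators Plau was lower (ratio 0.418) and Plat higher (3.59, on 45 and 14 reads) in F_KO. Of the clotting genes F3 (0.449) and F7 (0.562) were lower and F10 (1.09) and F5 (1.92) higher. The Serpinb2 ratio of 1.07 was 0.974 when scaled by total counts. The libraries with the lowest activators were not those with the lowest inhibitor: M_KO_5944 had the lowest activator mean and the highest Serpinb2 level of M_KO, and M_KO_5642 had the reverse.

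Ratios of FPKM within a library show the balance between partners. Serpinb2 exceeded Plau by 344, 318 and 33.7-fold in M_KO, by 405, 163 and 240.1-fold in M_WT, by 190.4-fold in F_KO and by 74.7-fold in F_WT. The transcript of the inhibitor thus outnumbered that of urokinase in all 8 libraries, least so in M_KO_5642. Plau exceeded Plat by 49.9, 16.9 and 149.9-fold in M_KO, by 13.6, 6.30 and 6.96-fold in M_WT, by 18.9-fold in F_KO and by 162-fold in F_WT. F10 exceeded F7 by 25.2, 22.6 and 5.91-fold in M_KO, by 25.7, 3.11 and 5.39-fold in M_WT, by 20.8-fold in F_KO and by 10.7-fold in F_WT, so that this ratio did not follow genotype. F5 was at 0.55, 1.67 and 0.48 of the F10 level in M_KO, at 0.47, 0.37 and 0.43 in M_WT, at 1.40 in F_KO and at 0.80 in F_WT.

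In the F pair, with 1 library per genotype and no test, 5 of the 9 genes were lower in F_KO (F3, F7, F13a1, Plau and Plaur) and 4 higher (F10, F5, Plat and Serpinb2). Of all tested genes 49.3% were lower in F_KO, and 6.98% had M libraries that did not overlap and an F pair of the opposite sign, as Plat and Serpinb2 did. F3 and Plau were at or below a ratio of 0.5, as were 6.09% of all tested genes, and Plat was above a ratio of 2, as were 5.65%. F3, F7, Plau and Plaur were lower and F5 was higher in F_KO, the direction of the fitted values in M, while Plat, Serpinb2, F10 and F13a1 had the opposite direction. For F13a1 this rests on M_KO_5642, since its fitted value in M was 0.94 with that library and -1.09 without it, the direction of the F pair. The fitted values of F5, Plau and Plaur in M also changed sign when single libraries were left out. Scaled by total counts, the F pair ratios of F10 (0.997) and Serpinb2 (0.974) lay below 1. By edgeR 0 of 9 members were called for an interaction of genotype and letter (0.0218% of all genes called), with 1 at an unadjusted p under 0.05, and DESeq2 called Plat (0.142% of all genes called). The interaction contains the M values used in choosing the genes and 1 F library per genotype, so that nothing is read from these counts. The comparison of the F with the M libraries, with genotype as a term, was not used in choosing the genes. EdgeR called 0 of 9 members in it (0.0291% of all genes called), 0 at an unadjusted p under 0.05, and DESeq2 called 0 (0.118% of all genes called). The lowest and highest fitted values were -1.09 for F7 (SE 0.67) and 0.68 for F13a1 (SE 0.91).

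**Figure D3:**
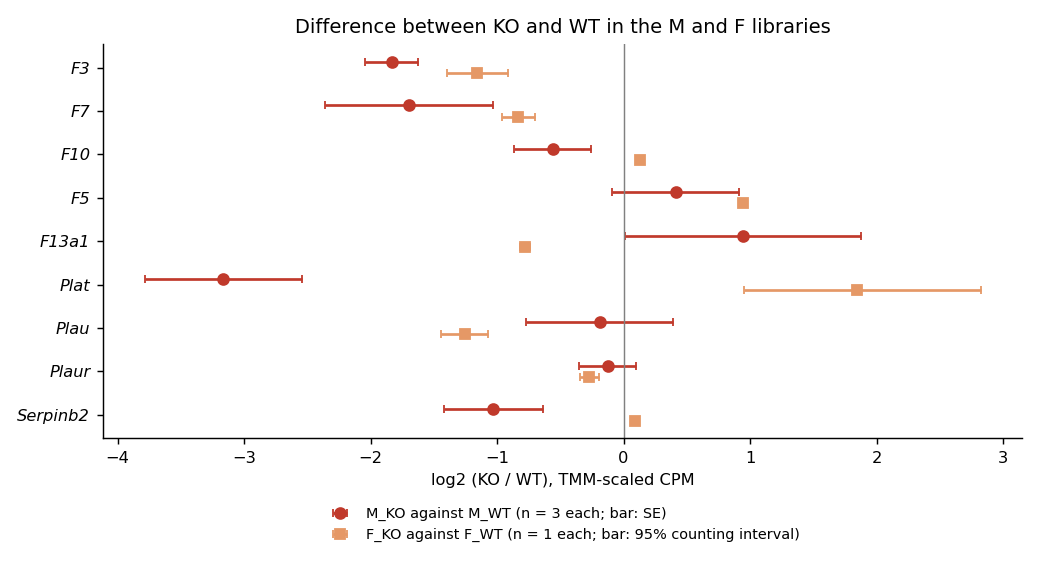
Log2 ratio of KO to WT (horizontal) for each gene, as the fitted value of M_KO against M_WT with its SE (circles, n = 3 each) and as the CPM ratio of F_KO to F_WT with its 95% counting interval (squares, n = 1 each). F3 lies at -1.83 in M and below 0 in F, and Plat lies at -3.17 in M and above 0 in F.

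M_KO_5645, M_KO_5642, F_KO, M_WT_5643 and F_WT have neighbouring numbers in their titles. Among these 5 libraries F3 was at 7.50, 9.13 and 9.73 CPM in the KO and 23.0 and 21.7 CPM in the WT libraries. The lack of overlap follows from the separation over all 8 libraries and is no second result. Plat was at 1.45, 0.71 and 2.17 CPM in the KO and 3.11 and 0.60 CPM in the WT libraries, with overlap. F7 was at 27.5, 92.4 and 33.6 CPM in the KO and 53.9 and 59.8 CPM in the WT libraries, with overlap. The high F7 and Plat levels were those of M_WT_6258 and M_WT_6255. Serpinb2 was at 2921, 1353 and 2930.4 CPM in the KO and 6444 and 2747 CPM in the WT libraries, with overlap.

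M_KO_5642 differed from the other libraries in both directions. It had the highest F13a1 and Plau and the lowest F5, F10 and Serpinb2 of the 8 libraries. In the same library Timd4 (60.3 CPM), the lipoxygenase gene Alox15 (434 CPM), the lubricin gene Prg4 (2220 CPM) and Garnl3 (13.6 CPM), all on the resident macrophage list, were at their lowest levels. On that list Gata6, Selp and Vsig4 were also lowest there, but Icam2 and Fn1 were not. Icam2 was at 183 CPM in M_KO_5642 and 163 CPM in F_KO, and Fn1 at 45459 CPM in M_KO_5642 and 40109 CPM in M_WT_6258. In the other 5 M libraries Alox15 was at 1572 to 3134 CPM and Prg4 at 4083 to 8661 CPM. F_WT lay nearest to M_KO_5642 for Timd4 (193 CPM), Prg4 (2888 CPM), F13a1 (749.9 CPM) and Plau (37.1 CPM), though not for Alox15 (1781 CPM). F_KO held 377 CPM of Timd4, 3020 CPM of Alox15 and 7019 CPM of Prg4. Of the 10 listed mast cell and basophil genes, Cpa3, Mcpt4, Tpsb2 and Cma1 were at 0 in M_KO_5642. They were also near the floor in M_WT_6258 (2 to 12 reads), M_WT_6255 (3 to 18 reads) and F_WT (2 to 5 reads). Kit, on the same list, was at 1.58 CPM in M_KO_5642, within the 0.81 to 2.77 CPM of the other libraries. Hdc was at its lowest there, with 2531 reads. B cell content also differed between libraries. The 6 listed B cell genes summed to 129, 260 and 90.4 CPM in M_KO and to 155, 66.5 and 63.9 CPM in M_WT. Their sum was 292 CPM in F_KO and 189 CPM in F_WT. The part of resident macrophages, mast cells and B cells in the levels of the clotting and fibrinolysis genes was not tested.

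**Figure D4:**
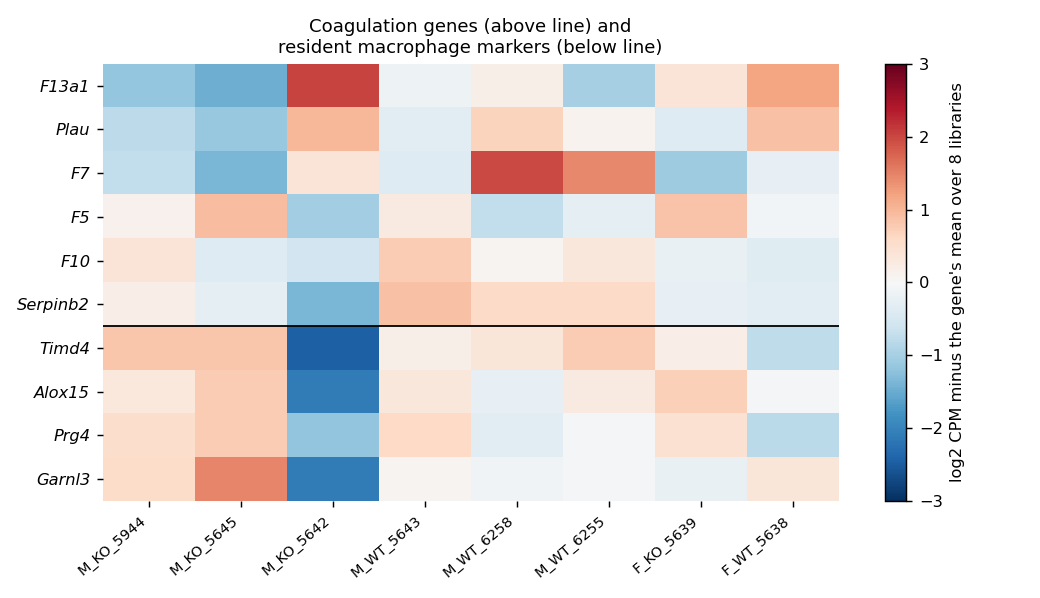
Log2 CPM of 6 clotting and fibrinolysis genes (above the line) and 4 of the 9 listed resident macrophage genes (below it) in each library, relative to each gene's mean over the 8 libraries (colour, red high and blue low), with libraries along the horizontal axis. M_KO_5642 is high for F13a1 and Plau and low for F5, Serpinb2, Timd4, Alox15, Prg4 and Garnl3.

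Of 67 other genes in 6 lists of the clotting and fibrinolysis pathways, 32 passed the expression filter and 35 did not, 17 of them with no count in any library. The prothrombin gene F2, the fibrinogen genes Fga, Fgb and Fgg, the plasminogen gene Plg and the protein C gene Proc had 0 counts in all 8 libraries. The substrates of the pathway were thus not detectable as transcripts at this depth, while F10, F5 and Serpinb2 ranked 296 or better by FPKM in each library. EdgeR called 0 of the 32 in M_KO against M_WT (0.022% of all genes called) and 4 at an unadjusted p under 0.05 (9.56% of all genes), with Procr and Tgm2 lower and Serpinb8 and Serpinb10 higher. DESeq2 called 1, Procr, where 1.21% of all genes were called. In all, 20 had a lower and 12 a higher fitted value, with a median log2 fold change of -0.08, beside 6619 lower, 7027 higher and a median of 0.01 over all tested genes.

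Procr, which encodes the endothelial protein C receptor, an anticoagulant receptor, was called lower in M_KO by DESeq2 and not by edgeR. It was at 6.19, 2.64 and 2.81 CPM in M_KO and at 9.49, 13.4 and 9.24 CPM in M_WT, without overlap (log2 fold change -1.48, SE 0.38, edgeR adjusted p = 0.434, DESeq2 adjusted p = 0.028). In the F pair no difference was detectable at this depth, with 4.72 CPM in F_KO and 4.27 CPM in F_WT (ratio 1.10, interval 0.827 to 1.48). Of 7 measured anticoagulants, 4 had a lower and 3 a higher fitted value. Anxa5, the gene of a lipid-binding anticoagulant, was among the lower ones, at -0.32 in log2 fold change (edgeR adjusted p = 0.816). Thbd, the thrombomodulin gene, was at 10.8, 10.8 and 11.4 CPM in M_KO and 5.29, 10.1 and 8.22 CPM in M_WT (log2 fold change 0.48, edgeR adjusted p = 0.587), and at 20.8 CPM in F_KO and 7.51 CPM in F_WT. Pros1, the protein S gene, differed little (336 ± 107 CPM in M_KO and 387 ± 43.0 CPM in M_WT, SD, n = 3 each, log2 fold change -0.21). Tfpi, the gene of the inhibitor of tissue factor and factor VII, was at 10.5 ± 2.31 CPM in M_KO and 13.3 ± 1.13 CPM in M_WT (log2 fold change -0.35, edgeR adjusted p = 0.609), and this gene was named after its values were seen.

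The remaining lists held no call by either tool. Of 8 measured plasminogen and surface receptor genes, 6 had a lower and 2 a higher fitted value. Among them Itgb2, an integrin subunit that with Itgam binds fibrinogen, was at 786 ± 144 FPKM in M_KO and 904 ± 57.7 FPKM in M_WT (SD, n = 3 each). Lrp1, the receptor that clears activator and inhibitor complexes, was at 119 ± 10.3 FPKM in M_KO and 121 ± 27.6 FPKM in M_WT (log2 fold change -0.01). S100a10, whose product forms a plasminogen receptor with annexin A2, was at 145 ± 41.8 FPKM in M_KO and 184 ± 27.4 FPKM in M_WT. Of 6 measured genes of other clotting factors and their processing, 5 had a lower and 1 a higher fitted value, between -0.19 for Mcfd2 and 0.03 for Ano6 in log2 fold change, with the vitamin K reductase gene Vkorc1 at -0.11. Mcfd2 and Lman1 carry factor V and factor VIII out of the endoplasmic reticulum, and Ano6 exposes the lipid surface on which clotting factors assemble. Tgm2, a transglutaminase related to factor XIII A, was at 601, 306 and 368 CPM in M_KO and 635, 679 and 711 CPM in M_WT (log2 fold change -0.67, SE 0.26, edgeR adjusted p = 0.489). Its order was opposite in the F pair, with 725 CPM in F_KO and 429.8 CPM in F_WT. The thrombin receptor gene F2r was the only measured protease-activated receptor, at 0.69 ± 0.20 FPKM in M_KO and 0.52 ± 0.34 FPKM in M_WT. Of 7 measured clade B serpins other than Serpinb2, 4 had a lower and 3 a higher fitted value. Serpinb1a, an inhibitor of neutrophil proteases, was at 53.7 ± 40.5 FPKM in M_KO and 65.2 ± 8.77 FPKM in M_WT, and Serpinb6a at 37.9 ± 7.78 FPKM in M_KO and 45.9 ± 13.9 FPKM in M_WT (SD, n = 3 each).

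Serpinb2 lies in a cluster of clade B serpins, between Serpinb7 and Serpinb8, and overlaps Serpinb10 (chr1:107529003-107549271) on the same strand. Reads in the overlap could have been split between the genes or left out, so that both counts are uncertain. Serpinb10 held 1113 to 3196 reads against 34250 to 130350 reads of Serpinb2, and its fitted value went the other way (log2 fold change 0.51, SE 0.20, edgeR adjusted p = 0.511). Serpinb8 was at 114, 171 and 150.2 CPM in M_KO and 73.9, 91.2 and 100.2 CPM in M_WT (log2 fold change 0.71, SE 0.19, edgeR adjusted p = 0.434). Serpinb7 had at most 39 reads in a library (log2 fold change -0.48, edgeR adjusted p = 0.885). The overlapping gene and the right-hand neighbour thus had higher fitted values in M_KO, where Serpinb2 had lower ones, though the M groups overlapped for Serpinb10. In the F pair both were lower in F_KO. The F_KO to F_WT ratio was 0.84 for Serpinb8 (interval 0.79 to 0.89) and 0.69 for Serpinb10 (interval 0.64 to 0.74). F7 and F10 lie 1498 bases apart on the same strand. The genes beside them, Mcf2l (8.52, 7.24 and 24.1 CPM in M_KO and 12.3, 2.72 and 2.84 CPM in M_WT, edgeR adjusted p = 0.633) and Proz, which encodes protein Z (log2 fold change 0.25, edgeR adjusted p = 0.882), had higher fitted values in M_KO. F5 overlaps Gm16548, on the opposite strand, with 6 to 118 reads, and F13a1 overlaps antisense genes with at most 6 reads. Whether counting used strand is not stated, so reads of F5 and F13a1 cannot be told apart from those of their antisense partners.

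Genes with the most similar pattern were sought by the root mean square difference of centred log2 CPM over the 8 libraries, among 11147 genes with a mean log2 CPM of at least 1. For F3 they were Hpgds (0.37), which encodes a prostaglandin D synthase, the targeted gene Men1 (0.38) and the cytokine gene Lif (0.38). Lif was at 9.48, 6.47 and 9.01 CPM in M_KO, 42.8, 34.7 and 37.1 CPM in M_WT, 8.91 CPM in F_KO and 34.0 CPM in F_WT. For Serpinb2 they were Tnfrsf11a (0.17), the receptor gene of the cytokine RANKL, the immune checkpoint ligand gene Cd274 (0.21) and Samd9l (0.22). For Plat they were Sphk1 (0.80), a sphingosine kinase gene, Gm1966 (0.83) and Gm1821 (0.84), larger differences than for the nearest genes of any other member. For F5 they were Zfp503 (0.09), Tmc4 (0.16) and Ctsf (0.16), and for F10 Foxp4 (0.11), Parp10 (0.12) and Rnf114 (0.12). For Plaur they were Pdk3 (0.07), Tex30 (0.08) and Phtf1 (0.10), and for Plau Nme1 (0.22), Cenpn (0.25) and Etv1 (0.26). F13a1 was nearest to Slco4a1 (0.41), the carbonyl reductase gene Cbr2 (0.44) and the folate receptor gene Folr2 (0.44), and F7 to Psd3 (0.40), Fabp3 (0.47) and Hgsnat (0.48). Among the members themselves F10 and Serpinb2 were the closest pair (0.35) and F13a1 and Plat the farthest (2.13). F7 and F10, though adjacent, differed by 1.12, and the functional partners Plau and Plaur by 0.73. The measure is not scaled to a gene's range, so its size cannot be compared between members as a likeness of pattern. Plat spanned 4.29 log2 units over the 8 libraries and Plaur 0.89. These are descriptions over 8 libraries, and all genes of a library share its depth and genotype. F3 was chosen with its lower M_KO values known, and Men1 is the targeted gene. Their small difference was thus in part set by the choice, and nothing is read from it.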

How the data were processed

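RNA of peritoneal macrophages was sequenced in 8 libraries, prepared with a NEBNext Ultra kit per the labels' protocols. Per the submitters' processing notes, the tools were DESeq2 1.16.1, featureCounts 1.5.0-p3 and HISAT2 2.0.5 and the builds mm10 and GRCm38. The sources used here do not state the strand setting, the handling of multi-mapping reads or the annotation release. The authors deposited raw counts per gene (54532 rows, 28170 with no read in any library). Their deposited FPKM values are these counts scaled by gene length and 1 constant per library. The authors' table of M_KO against M_WT holds a per-library signal made from the counts, not tested here. It also holds log2 fold changes and p-values, which are quoted only where the authors' deposited table is named. No value column was left without a sample or group (0 columns). Library totals were 18206427 to 22853583 counts.

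Counts were fitted with edgeR 4.0.16 in R 4.3.3 (quasi-likelihood test, TMM scaling, default expression filter on genotype, Benjamini-Hochberg adjustment over all genes, threshold 0.05). The M comparison used the 6 M libraries. Interaction and letter were fitted on all 8. Each SE was computed from the test's F statistic. CPM values use TMM factors from all 8 libraries. The F libraries were compared as CPM ratios with 95% Clopper-Pearson intervals. Intervals and floors cover counting error only and not the spread between libraries. Reads without molecular identifiers can be copies of 1 molecule, so that even the counting error can be understated. Levels of different genes were compared on log2(FPKM + 0.1). Alternatives were DESeq2 1.42.0, limma 3.58.1 (voom, and log2 FPKM with pseudocounts of 0.1 and 1), other scalings and filters, and leaving out each library.

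The members and gene lists were chosen with earlier results of these data known. Named are the members, Men1, genes of each pathway list called by edgeR or DESeq2 or among the 4 with the highest FPKM, the nearest protein-coding neighbours of F7 with F10 and of Serpinb2, and the 3 genes most like each member. Tgm2, Serpinb8 and Serpinb10 are also named for their unadjusted p. The list of fibrinolysis inhibitors is not reported here.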

Additional observations from a re-analysis of the deposited data

Results flagged for a closer look

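Plat, the gene of tissue plasminogen activator, drew attention because its M libraries did not overlap while its F pair had the opposite order. Each of 3 M_KO libraries lay below each M_WT library (log2 fold change -3.17), whereas the F_KO to F_WT ratio was 3.59 (interval 1.93 to 7.08). The F pair is 1 library per genotype, with 45 reads in F_KO and 14 reads in F_WT. The difference between the comparisons has no independent test, because an interaction of genotype and letter contains the M values used in choosing the gene.

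Serpinb2, the gene of plasminogen activator inhibitor 2, met the same description. Its 3 M_KO libraries lay below its M_WT libraries (log2 fold change -1.03), and its F_KO to F_WT ratio was 1.07 (interval 1.06 to 1.08). For the same reason this difference has no independent test. The ratio was 0.974 when scaled by total counts, so the order of the F pair depended on the scaling. Of all tested genes, 6.98% had M libraries that did not overlap and an F pair of the opposite sign.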

How the results depend on the processing

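Counts of calls over all genes depended on the tool and on single libraries, while the direction of F3, F7, F10, Plat and Serpinb2 in M was the same under each alternative run. In M_KO against M_WT edgeR called 3 genes, DESeq2 188, edgeR without a filter 16, F3 among them (adjusted p = 0.016), and edgeR on all 8 libraries 1. Leaving out 1 library gave 0 to 21 with edgeR and 67 to 555 with DESeq2. For the interaction the count of 3 was 20 with DESeq2 and 0 to 6 without 1 library. Between F and M it was 4 with edgeR and 16 with DESeq2. Of the other pathway genes edgeR called 0 and DESeq2 1. Members called by DESeq2 numbered 2, and 2 to 4 without 1 M library, with F3 and Plat called in all 6 such fits, F10 and Serpinb2 added without M_KO_5944, and F7 without M_WT_5643 or M_KO_5642. DESeq2 called 555 genes in all without M_KO_5944, 310 without M_WT_5643 and 230 without M_KO_5642. Members with each M_KO below each M_WT library numbered 3 (7.14% of all tested genes), and 3 to 6 without 1 library. The count of 6 was without M_KO_5642, where 13.2% of all tested genes had this pattern. Nothing is read from these counts of members, since the comparison was known when the genes were chosen. The counts of separated members and the DESeq2 counts without 1 library were chosen after seeing the data. In the order of levels 4 of 8 pairs passed, and 0 with the 6 M libraries, where fewer libraries raise the smallest possible p.

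Fitted log2 fold changes changed sign when 1 library was left out for F5 (-0.15 to 0.78), F13a1 (-1.09 to 1.42), Plaur (-0.36 to 0.079) and Plau (-1.16 to 0.16). The sign changed without M_KO_5645 for F5, without M_KO_5642 for F13a1, without M_KO_5944 for Plaur, and for Plau without M_WT_6258 (0.11), M_KO_5944 (0.09) or M_KO_5645 (0.16). The cause was not tested. Plat was -0.96 on log2(FPKM + 1), a scale that shrinks differences of low genes. Scaling the F pair by total counts shifted each log2 ratio by -0.13, which turned F10 to 0.997 and Serpinb2 to 0.974. No paired analysis was run, because the replicate numbers differ between the groups and the titles name no pairs. Depth limits Plat most, with 11 to 28 reads in M_KO.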
